A study of Mus musculus with 11 samples.

Results

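The imprinted Dlk1-Dio3 locus was described across RNA-seq libraries of mouse embryonic stem cells. Its 6 members, Dlk1, Meg3, Rtl1, Rian, Mirg and Dio3, were taken by symbol out of the 55228 gene symbols in the count and TPM tables. The locus was selected on the measured log2 fold changes of Dio3, already known from these libraries to be large after auxin and between the H373R and FL groups. The values of Dio3 are therefore given as a description, without a test. The other members were listed for their position in the locus, although earlier results of these data were known when they were chosen.

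All 11 libraries came from EN52.9.1, a CTCF-AID line of mouse embryonic stem cells in which auxin triggers degradation of the tagged CTCF protein. The cells were grown in serum medium with leukemia inhibitory factor. EV untreated (3 libraries, genotype given as wild-type, no auxin) is the control, and it carries the tagged CTCF as do all other groups. EV auxin (2 libraries) received the auxin analog IAA at 500 µM, and its genotype is given as depletion of endogenous CTCF. FL auxin (3 libraries) received auxin and had FL CTCF put back. H373R auxin (3 libraries, ZF4 in the sample titles) received auxin and had H373R CTCF put back. No untreated FL or H373R library was analysed here, so auxin and the introduced protein cannot be told apart when these groups are set against EV untreated. The labels name 1 cell line and do not say whether replicates were separate cultures, so p-values measure only the spread between these samples. They also do not say whether the FL and H373R cells were each 1 clone. A difference of these groups from the EV groups, or from each other, therefore cannot be told apart from a difference between clones. The length of the auxin treatment is not given in the sources used here.

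The Dlk1-Dio3 domain lies on distal mouse chromosome 12. As background, the protein-coding genes Dlk1, Rtl1 and Dio3 are expressed mainly from the paternal chromosome, and the noncoding RNAs Meg3, Rian and Mirg from the maternal one. A differentially methylated region between Dlk1 and Meg3, methylated on the paternal chromosome, controls both sets, and silencing of the maternal RNAs is known in some cultured pluripotent cells. CTCF is a zinc finger DNA-binding protein that organises chromatin loops and domain borders. The files hold 1 count per gene and library, with no split by parental allele.

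In the GRCm38 annotation (GENCODE M21), Dlk1 lies at chr12:109452823-109463336 on the plus strand. Meg3 starts 88 kb further on, at chr12:109541001-109571726 on the plus strand. Rtl1 lies on the minus strand at chr12:109589193-109600330. Rian (chr12:109603940-109661716) and Mirg (chr12:109729764-109749460) follow on the plus strand. Dio3 (chr12:110279068-110281097, plus strand) starts 530 kb beyond the end of Mirg and 738 kb beyond the Meg3 start. The locus from Dlk1 to Dio3 spans 828 kb and holds 115 annotated genes.

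Promoter sequences of Meg3 and Dio3 are given as a description. After auxin in EV cells Dio3 was higher and Meg3, like Rian, fell. A link between these changes and the sequences was not tested. The sequences are from RefSeq on GRCm38.p6, where the Meg3 start is at position 109540996 and the Dio3 start at 110279230. The 250 bases before the Meg3 start, chr12:109540746-109540995 on the plus strand, are printed with an 8-base cyclic AMP response element (TGACGTCA) and a TATA box (TATAAA) in capitals. For the TATA boxes of Meg3 (chr12:109540959-109540988) and Dio3 (chr12:110279187-110279216), 30 bases on the plus strand are set side by side.
Meg3 promoter: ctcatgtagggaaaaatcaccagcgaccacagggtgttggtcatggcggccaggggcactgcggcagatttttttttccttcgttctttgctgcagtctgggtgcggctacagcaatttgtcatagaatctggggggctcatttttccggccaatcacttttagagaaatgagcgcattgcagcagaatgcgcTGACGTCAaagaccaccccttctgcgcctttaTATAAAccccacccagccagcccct
Meg3 TATA region: tctgcgcctttaTATAAAccccacccagcc
Dio3 TATA region: tcaagctttgacTATAAAttgagctcccag
The TATAAA word begins 25 bases before the Meg3 start and 31 bases before the RefSeq Dio3 start. GENCODE places the Dio3 start 162 bases upstream of the RefSeq one. The RefSeq Mirg start, at 109734981, lies inside the GENCODE Mirg gene, which starts at 109729764. The Mirg window is therefore not at the start of the GENCODE gene. Of 32851 RefSeq promoters of 300 bases (250 before to 50 after the start, both strands searched), 13.6% hold TATAAA and 1.79% hold TGACGTCA. Among the members, TGACGTCA was found only at the first Meg3 start. The Dlk1 and Rian promoters and the RefSeq Mirg window held no TATAAA. The table used has no Rtl1 entry.

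The Dio3 promoter was GC-rich, at 69.0%, against a median of 52.7% over all promoters. The Dlk1 promoter was at 55.7%, the first Meg3 promoter at 53.7%, the RefSeq Mirg window at 51.3% and Rian at 49.3%. Because the study concerns CTCF and G-quadruplexes, folds formed by runs of G, the windows were also searched for the pattern of 4 runs of at least 3 G separated by 1 to 7 bases, which 18.6% of promoters hold on either strand. It was found in the windows of Dlk1, a second Meg3 start and Rian, and in that of Dio3os, the noncoding neighbour of Dio3, but not in that of Dio3. These matches are strings of letters in these windows, not a measured site.

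The maternal transcripts also carry microRNAs, short RNAs that pair with target RNAs mainly through their seed, bases 2 to 8. RefSeq gives 114 mature microRNAs from 61 genes in the locus, with 104 distinct seeds. By the GENCODE spans, Mirg holds 26 of them on its own strand, Rian 6 and Meg3 3. A set of 11 lies on the strand opposite to Rtl1, between positions 109590459 and 109595352 for those shown, and each of the 11 is complementary over its whole length to the Rtl1 transcript because it is read from the other strand of the same DNA. Examples of this set are printed first, then 1 from Rian and 3 from Mirg, with the seed in capitals.
miR-431-5p: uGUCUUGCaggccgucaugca
miR-433-3p: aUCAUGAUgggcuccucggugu
miR-127-3p: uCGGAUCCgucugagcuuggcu
miR-434-3p: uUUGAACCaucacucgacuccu
miR-136-5p: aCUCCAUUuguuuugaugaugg
miR-370-3p: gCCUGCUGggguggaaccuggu
miR-410-3p: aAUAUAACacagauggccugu
miR-453: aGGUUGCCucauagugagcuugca
miR-496a-5p: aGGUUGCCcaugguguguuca
The Mirg-hosted pair miR-453 and miR-496a-5p shares the seed GGUUGCC, 1 of 10 seeds that occur in 2 mature microRNAs of the locus. The 5 shown opposite to Rtl1 have 5 different seeds. The levels of these small RNAs were not measured: of 67 microRNA and 23 snoRNA genes annotated in the locus, 77 had no count in any library, and the other 13 had at most 1 count in a library. What follows is about the long transcripts.

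Total counts ran from 13465241 to 29902246 per library, and 16420 genes passed the filter on low counts. EV untreated replicate 1 stood apart from the other EV untreated libraries, with a chi-square per degree of freedom of 14.5 and 13.6 against them and 1.88 to 4.69 for all other replicate pairs. Its deviation from the group mean went with the GC content of the genes (r = 0.56 over 16242 genes), so values without it are given for the members. Ctcf mRNA was measured at 325 ± 27.5 CPM (SD, n = 3) without auxin and 361 ± 3.63 (SD, n = 2) with it in the EV cells; the degradation acts on the protein, so this level does not check it. All 8 stem cell markers were expressed in every group (summed level 9710 to 10700 TPM), while 3 of 7 fibroblast markers, Postn, Dcn and Lum, had at most 2 counts in any library. Among the other fibroblast markers Col1a1 was at 14 to 25.7 TPM and Thy1 at 31.6 to 44.8 TPM, and the summed level of the 7 was 52.4 to 56.5 TPM in EV untreated, 48.4 to 53.2 in EV auxin, 64.3 to 73.1 in FL auxin and 63.3 to 68.3 in H373R auxin. In these bulk libraries, fewer cells expressing a gene and less RNA per cell cannot be told apart.

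Levels are given as TMM-scaled CPM (counts scaled to library size), which compare a gene between libraries, and as TPM, which is scaled per transcript length and also allows comparison between genes. Of the 6 members, 5 passed the filter on low counts and Rtl1 did not. In EV untreated cells, the order by TPM was Rian (7.73 ± 0.749, SD, n = 3), Dlk1 (6.66 ± 0.714), Meg3 (2.05 ± 0.0758), Dio3 (1.90 ± 0.343) and Mirg (1.09 ± 0.0487), with Rtl1 listed at 0. The ranges of Rian and Dlk1 overlapped, as did those of Meg3 and Dio3. After auxin in EV cells the order became Dio3 (10.4 ± 1.40, SD, n = 2), Dlk1 (7.31 ± 0.166), Rian (5.80 ± 0.102), Meg3 (1.43 ± 0.0409) and Mirg (0.854 ± 0.0398). Dio3 thus went from below Rian and Dlk1, and from a range overlapping that of Meg3, to above all of them by TPM. Its counts in EV auxin, 89 and 144, were below those of Dlk1 (189 and 261), Meg3 (123 and 158) and Rian (873 and 1139). The first place of Dio3 in this order therefore rests on the gene lengths used.

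**Figure D1:**
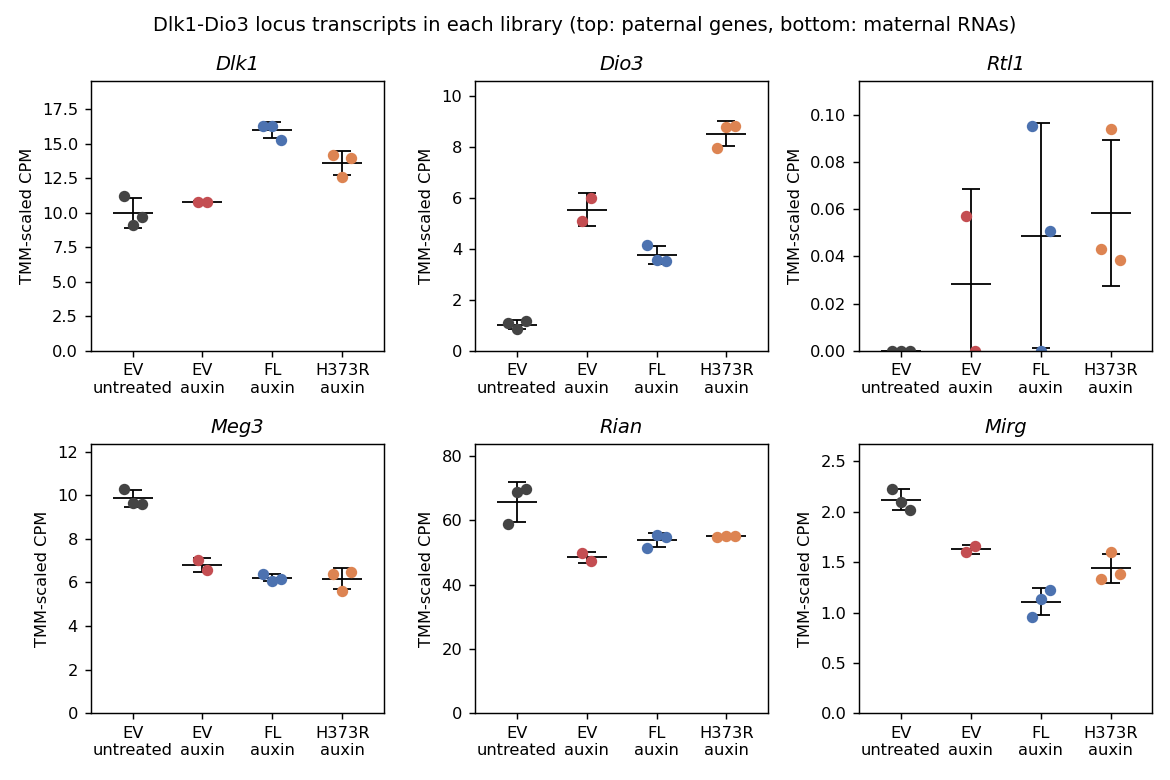
TMM-scaled CPM of each locus gene (y axes, each starting at 0 with its own range) in the 11 libraries, by group; points are libraries, horizontal bars the group mean and whiskers ± 1 SD (n = 3, 2, 3 and 3). Dio3 ranges from 0.832 to 1.18 in EV untreated and from 7.96 to 8.81 in H373R auxin, Meg3 is highest in EV untreated, and Rtl1 is at 2 counts or fewer in every library.

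Dio3 encodes the deiodinase that inactivates thyroid hormone. It was at 1.07, 0.832 and 1.18 CPM in EV untreated replicates 1 to 3. After auxin it was at 5.08 and 5.98 CPM in the EV cells. It stood at 4.15, 3.57 and 3.52 CPM in FL auxin and at 7.96, 8.77 and 8.81 CPM in H373R auxin. No group overlapped another: EV untreated was lowest, then FL auxin, then EV auxin, and H373R auxin was highest. The counts behind these values were 17 to 32 per library in EV untreated and 185 to 229 in H373R auxin.

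On the log2 scale, the fitted Dio3 level in EV auxin was 2.41 ± 0.16 (SE) above EV untreated, which is 5.33-fold. FL auxin was 0.56 ± 0.14 (SE) below EV auxin on the log2 scale (-0.56) and 1.85 ± 0.16 above EV untreated. FL cells thus held a Dio3 level 3.61-fold that of untreated EV cells. H373R auxin was 0.61 ± 0.12 above EV auxin, 1.17 ± 0.12 above FL auxin (2.26-fold) and 3.03 ± 0.14 above EV untreated (8.14-fold). Without EV untreated replicate 1, the rise after auxin in EV cells was 2.42. The FL value against EV auxin was -0.42 without EV auxin replicate 2.

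Dlk1 encodes a transmembrane protein with EGF-like repeats, a noncanonical ligand of the Notch pathway. Its levels were 11.2, 9.15 and 9.70 CPM in EV untreated and 10.8 CPM in both EV auxin libraries. In FL auxin they were 16.3, 16.3 and 15.3 CPM, and in H373R auxin 14.2, 12.6 and 14 CPM. Dlk1 in the EV groups overlapped, and every FL or H373R library lay above every EV library. Differences were tested with the quasi-likelihood F test of edgeR, and every adjusted p is a Benjamini-Hochberg value over all 16420 genes.

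Dlk1 did not pass the threshold of 0.05 after auxin in EV cells (log2 fold change 0.10 ± 0.10, SE; 95% interval -0.11 to 0.32; adjusted p = 0.535). It rose in FL against EV auxin by 0.56 ± 0.10 (adjusted p = 9.44e-04), a 1.48-fold difference. It also rose in H373R against EV auxin by 0.33 ± 0.10 (adjusted p = 0.0257), a call that ended when EV auxin replicate 1 or 2 or H373R replicate 1 or 3 was left out (adjusted p from 0.077 to 0.141). Between H373R and FL the Dlk1 difference was -0.23 ± 0.09 (adjusted p = 0.132), with an interval from -0.41 to -0.05; it passed without EV untreated replicate 1 (-0.24, adjusted p = 0.0298), which shares the estimate of spread. Against EV untreated, Dlk1 rose by 0.66 ± 0.09 in FL (adjusted p = 3.75e-05) and by 0.43 ± 0.09 in H373R (adjusted p = 8.22e-04), and without EV untreated replicate 1 these values were 0.76 and 0.52.

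Markers of primitive endoderm, an extraembryonic lineage, moved with Dlk1. The summed level of 8 markers was 22.5 to 25.2 TPM in EV untreated and 25.5 to 26.9 in EV auxin. It was 79.2 to 87.7 TPM in FL auxin and 50.1 to 57.1 in H373R auxin. All 8 of 8 markers passed as higher in FL and in H373R against EV auxin, beside 11.1% and 10% of all genes. None of the 8 was at 0 in any group. The endoderm factor Sox17 was at 1.27, 1.89, 4.77 and 3.64 CPM (means of EV untreated, EV auxin, FL and H373R), and its profile was among the 5 most like that of Dlk1 (Pearson r = 0.979 over 11 libraries). Of the fibroblast markers, 3 of the 4 tested were also higher in FL against EV auxin, beside 11.1% of all genes. These were Col3a1 by 1.65, Thy1 by 0.49 and Col1a1 by 0.48 on the log2 scale. In H373R against EV auxin 1 of the 4 was higher, beside 10%, whereas Postn, Dcn and Lum stayed at 2 counts or fewer in every library. In FL against EV auxin, 2 of 5 tested neuroectoderm markers were higher and 3 lower, beside 11.1% and 13.4% of all genes. Of 6 mesendoderm markers 2 were higher and 1 lower there, and of 5 trophoblast markers 2 were higher and 1 lower. Against EV untreated, 3 of the 5 trophoblast markers were higher and 1 lower in FL, beside 17.7% and 19.2%. The part of any of these marker sets in the Dlk1 levels was not tested.

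Rtl1, a retrotransposon-derived gene known for its role in placental vessels, was close to absent. EV untreated libraries had 0 counts each, which allows up to 0.0386 CPM over the group (3 counts over the summed libraries). EV auxin had 1 and 0 counts, FL auxin 2, 0 and 1, and H373R auxin 1, 2 and 1. Every library was thus below 3 counts, and no fold or test is given for Rtl1. The intervals of a count of 0 cover counting error only. Rtl1 lies opposite to the microRNAs printed above, and the strand setting of the counting is not given in the sources used here.

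Meg3 is the long noncoding RNA that marks the active maternal chromosome of the locus. It was at 10.3, 9.64 and 9.62 CPM in EV untreated and at 7.01 and 6.56 CPM in EV auxin. FL auxin libraries were at 6.39, 6.08 and 6.17 CPM, and H373R auxin libraries at 6.41, 5.61 and 6.50 CPM. Each auxin-treated library lay below every untreated one. FL and H373R libraries overlapped each other and all lay below the EV auxin libraries.

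Meg3 fell by 0.54 ± 0.10 (SE) on the log2 scale after auxin in EV cells (adjusted p = 0.00102), to 0.686 of the untreated level. Without EV untreated replicate 1 the value was -0.53 (adjusted p = 5.83e-04). On log2(TPM + 1) with limma, which understates changes of low genes, the value was -0.32 and missed the threshold (adjusted p = 0.0946). Meg3 also missed it with limma on log2(TPM + 0.1), where this understatement is smaller. Meg3 differed by -0.12 ± 0.11 between FL and EV auxin (adjusted p = 0.502, 95% interval -0.35 to 0.11) and by -0.13 ± 0.10 between H373R and EV auxin (adjusted p = 0.452, -0.35 to 0.10). Between H373R and FL the difference was -0.01 ± 0.10 (adjusted p = 0.982), with an interval from -0.22 to 0.20. Against EV untreated, Meg3 fell by 0.66 ± 0.09 in FL (adjusted p = 5.18e-05) and by 0.67 ± 0.09 in H373R (adjusted p = 1.82e-05), and without EV untreated replicate 1 by 0.63 and 0.65.

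Rian is the noncoding host of C/D box snoRNAs and several microRNAs, and it had the most counts of the members. In EV untreated it was at 58.7, 68.7 and 69.8 CPM, the first value being that of the library that stood apart. EV auxin was at 49.8 and 47.3 CPM, FL auxin at 51.5, 55.3 and 54.8, and H373R auxin at 54.8, 55.2 and 55.1. The auxin-treated libraries all lay below the untreated ones, and those of FL and H373R above those of EV auxin.

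Rian fell by 0.44 ± 0.07 (SE) on the log2 scale after auxin in EV cells (adjusted p = 5.25e-04). Without EV untreated replicate 1 the value was -0.53 (adjusted p = 7.30e-08). The differences from EV auxin were 0.15 ± 0.07 in FL (adjusted p = 0.159) and 0.18 ± 0.07 in H373R (adjusted p = 0.091). Both passed without EV untreated replicate 1, at 0.16 (adjusted p = 0.0204) and 0.19 (adjusted p = 0.00749). H373R and FL differed by 0.03 ± 0.07 (adjusted p = 0.834, 95% interval -0.11 to 0.17). Against EV untreated, Rian fell by 0.29 ± 0.07 in FL (adjusted p = 0.00291) and by 0.25 ± 0.06 in H373R (adjusted p = 0.00445), and without EV untreated replicate 1 by 0.37 and 0.34. These last differences turned direction, to 0.09 and 0.21, when trends with GC content and length were removed.

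Mirg is the most distal of the maternal noncoding RNAs and the host of the largest microRNA cluster of the locus. It was low, at 2.23, 2.10 and 2.02 CPM in EV untreated and 1.60 and 1.66 CPM in EV auxin. FL auxin was at 0.954, 1.14 and 1.22 CPM and H373R auxin at 1.33, 1.60 and 1.38 CPM, from 15 to 67 counts per library over all groups. Untreated libraries were highest and FL libraries lowest, with no overlap of either with another group.

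Mirg did not pass after auxin in EV cells (-0.38 ± 0.17, SE; adjusted p = 0.181), nor in FL against EV auxin (-0.57 ± 0.21; adjusted p = 0.0834) or H373R against EV auxin (-0.19 ± 0.19; adjusted p = 0.589). Its interval between H373R and FL ran from -0.02 to 0.79 around 0.38 (adjusted p = 0.351). Against EV untreated, Mirg fell by 0.95 ± 0.17 in FL (adjusted p = 6.22e-04), to 0.519 of the level. In H373R it fell by 0.56 ± 0.15 (adjusted p = 0.00766), a call that DESeq2 did not make (-0.57, adjusted p = 0.0666). Without EV untreated replicate 1 these values were -0.90 and -0.53.

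**Figure D2:**
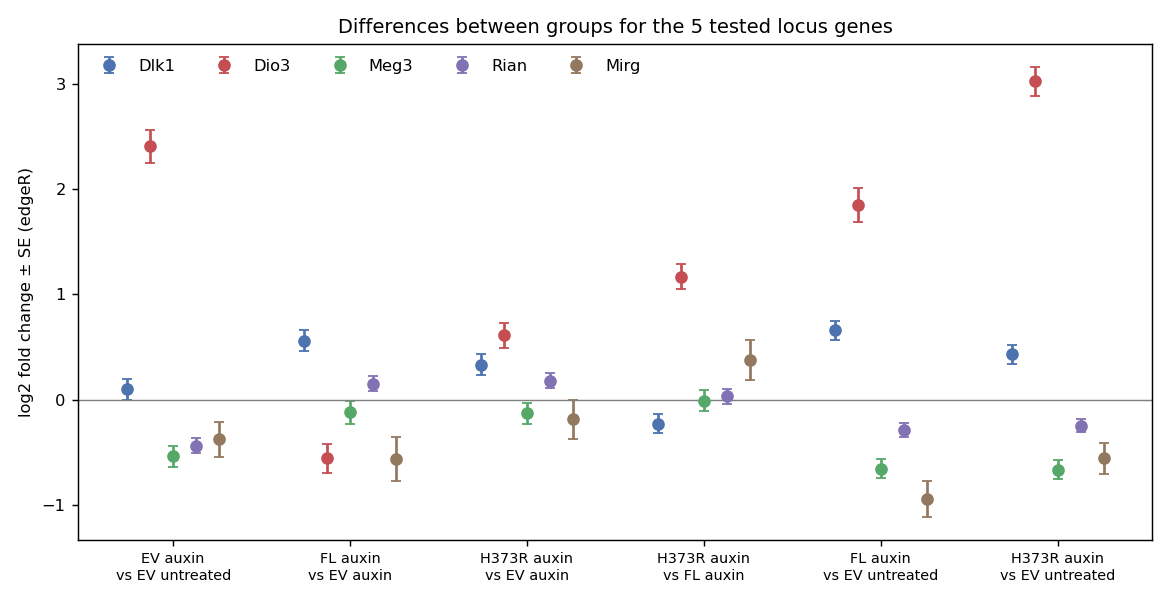
Log2 fold change (y axis) of the 5 tested locus genes in the 6 comparisons between groups (x axis); points are edgeR estimates and whiskers ± 1 SE. Dio3 lies at 2.41 after auxin in EV cells and at 3.03 in H373R against EV untreated, Dlk1 is above 0 in both introduced-CTCF groups, and Meg3, Rian and Mirg lie below 0 against EV untreated in all auxin-treated groups; Rian turns to 0.09 in FL and 0.21 in H373R there once GC content and length trends are removed.

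Counts of members that passed the test are given over the 4 tested members other than Dio3, since the locus was selected on the values of Dio3. After auxin in EV cells 2 of the 4 passed, beside 20.7% of all genes: 0 were higher, beside 11.3%, and 2, Meg3 and Rian, were lower, beside 9.40%. In FL against EV auxin 1 passed, Dlk1, beside 24.5% of all genes, and it was higher (11.1% of all genes were higher and 13.4% lower). In H373R against EV auxin 1 passed, again Dlk1 as higher, beside 21.7% of all genes (10% higher and 11.7% lower). Both shares, 1 of 4, are near those of all genes. Between H373R and FL 0 of the 4 passed with edgeR, and none with DESeq2, beside 5.96% of all genes (3.14% higher and 2.82% lower); Dlk1 was the only one whose unadjusted 95% interval lay off 0. Against EV untreated all 4 passed in FL, beside 36.9% of all genes: 1 was higher (17.7%) and 3 lower (19.2%). In H373R all 4 passed as well, beside 44.4%, with 1 higher (22.3% of all genes) and 3 lower (22.1%). In both, Rian was among the lower ones, and its direction turned once GC content and length trends were removed. The median log2 fold change over all genes was between -0.014 and 0.009 in the 6 comparisons. The comparisons that include EV auxin or EV untreated share those libraries and are not independent of each other.

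Among the members, the ratio of Dio3 to Dlk1 by TPM was 0.253 to 0.338 in EV untreated and 1.31 to 1.54 in EV auxin. It was 0.609 to 0.709 in FL and 1.57 to 1.94 in H373R. FL alone among the auxin-treated groups thus had more Dlk1 than Dio3 by TPM, an order that depends on the gene lengths used. The ratio of Mirg to Rian was 0.127 to 0.167 in EV untreated and 0.141 to 0.154 in EV auxin, and 0.0813 to 0.0979 in FL. In H373R it was 0.107 to 0.127. Mirg was thus lowest relative to Rian in FL, without overlap with the other groups. Over the 11 libraries, which share their groups, log2 CPM of Meg3 and Dio3 had a Pearson r of -0.90, Meg3 and Mirg 0.79, Meg3 and Rian 0.71, and Dlk1 and Mirg -0.91.

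By the longest annotated transcript of each gene, Rian is the member with the lowest GC content, at 35.76%. Meg3 was at 49.15%, Mirg at 51.91%, Dlk1 at 53.64% and Dio3 at 57.83%. Since one library deviated with GC content, the fit was repeated with trends in GC content and length removed from each library. The fall of Rian after auxin in EV cells was then -0.27 (adjusted p = 6.39e-04). Against EV untreated, however, the Rian value became 0.09 in FL (adjusted p = 0.153) and 0.21 in H373R (adjusted p = 6.70e-04), the opposite direction to the main values. Against EV auxin, Rian then passed as higher in FL (0.36, adjusted p = 5.59e-05) and in H373R (0.48, adjusted p = 2.24e-06). A lower Rian level in FL and H373R than in untreated cells thus depended on this step.

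Meg3 kept its fall after auxin in EV cells with the trends removed (-0.47, adjusted p = 0.00101), and against EV untreated it stood at -0.40 in FL (adjusted p = 0.00116) and -0.39 in H373R (adjusted p = 8.10e-04). Dio3 stood at 2.31 after auxin in EV cells, at -0.59 in FL against EV auxin and at 1.08 in H373R against FL. Dlk1 was at 0.60 in FL against EV auxin (adjusted p = 1.74e-05), and its difference between H373R and FL passed (-0.28, adjusted p = 0.0124). Mirg against EV untreated was at -0.90 in FL (adjusted p = 5.43e-04) and at -0.53 in H373R (adjusted p = 0.00945).

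**Figure D3:**
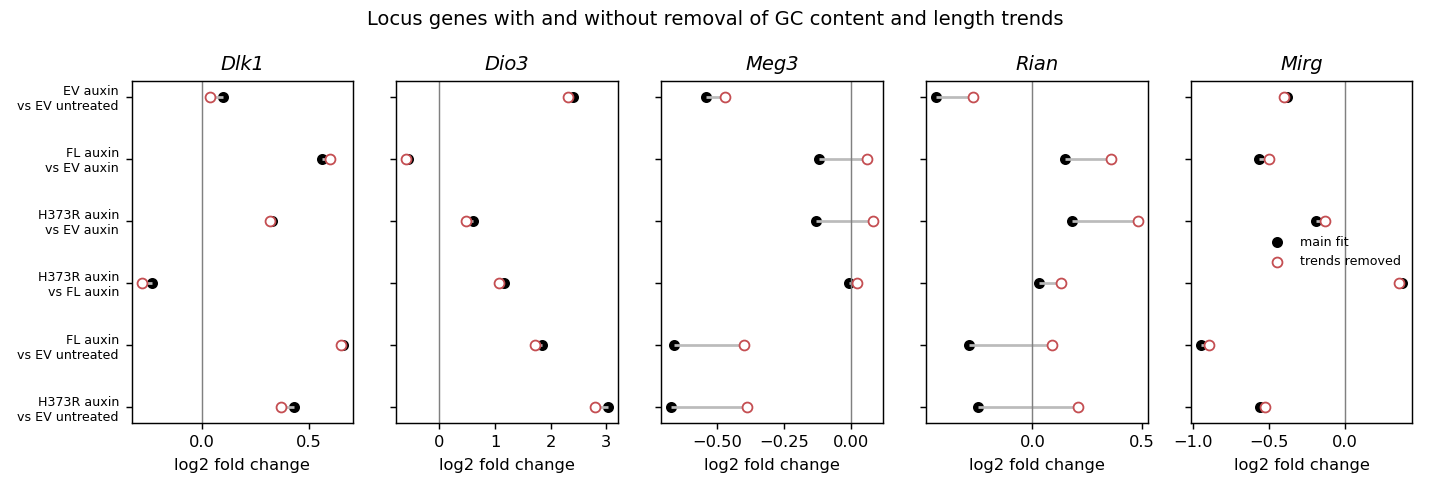
Log2 fold change (x axes, each gene with its own range) of the locus genes in the 6 comparisons (rows) in the main fit (black) and with GC content and length trends removed (open red); points are estimates without error bars. Rian in H373R against EV untreated moves from -0.25 to 0.21, whereas Dio3 after auxin in EV cells moves from 2.41 to 2.31.

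Between Dlk1 and Dio3, 109 annotated genes are not members, and only Gm3379, a processed pseudogene, passed the filter on low counts. It was not called after auxin in EV cells. Dio3os, the noncoding RNA that starts next to Dio3 on the opposite strand, had 0 to 6 counts per library, and Gm34081, between Dlk1 and Meg3, had 2 to 8. Dio3 had 17 to 229 counts over the same libraries.

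Tested genes within 1 Mb outside the locus passed after auxin in EV cells about as often as genes in general (20.7%). Upstream of Dlk1, 1 of 8 passed: Wdr25, at -0.35 ± 0.08 (SE; adjusted p = 0.00764). Begain, the nearest tested gene before Dlk1, was at -0.26 ± 0.22 (adjusted p = 0.457). The zinc finger factor Yy1 was at -0.14 ± 0.06 (adjusted p = 0.132). Downstream of Dio3, 4 of 17 passed: Mok (0.38 ± 0.08) and Wdr20 (0.21 ± 0.07) were higher, and Ppp2r5c, a phosphatase subunit (-0.25 ± 0.05), and Dync1h1, the dynein heavy chain (-0.27 ± 0.09), were lower. No tested flanking gene had a log2 value above 0.66 in size in that comparison, against 2.41 for Dio3.

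In FL against EV auxin, 0 of 8 upstream and 7 of 17 downstream genes passed, 3 higher and 4 lower, beside 24.5% of all genes. In H373R against EV auxin, 0 of 8 upstream and 3 of 17 downstream genes passed, beside 21.7%. Of these, Amn, an endocytosis receptor subunit, was 0.95 ± 0.22 higher in FL (adjusted p = 0.00636) and 0.94 ± 0.22 higher in H373R (adjusted p = 0.00637). Traf3, a signalling adaptor, was at -0.50 ± 0.08 in FL and -0.49 ± 0.08 in H373R. Mok differed between H373R and FL by 0.45 ± 0.07 (adjusted p = 0.00194), higher in H373R as Dio3 was.

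**Figure D4:**
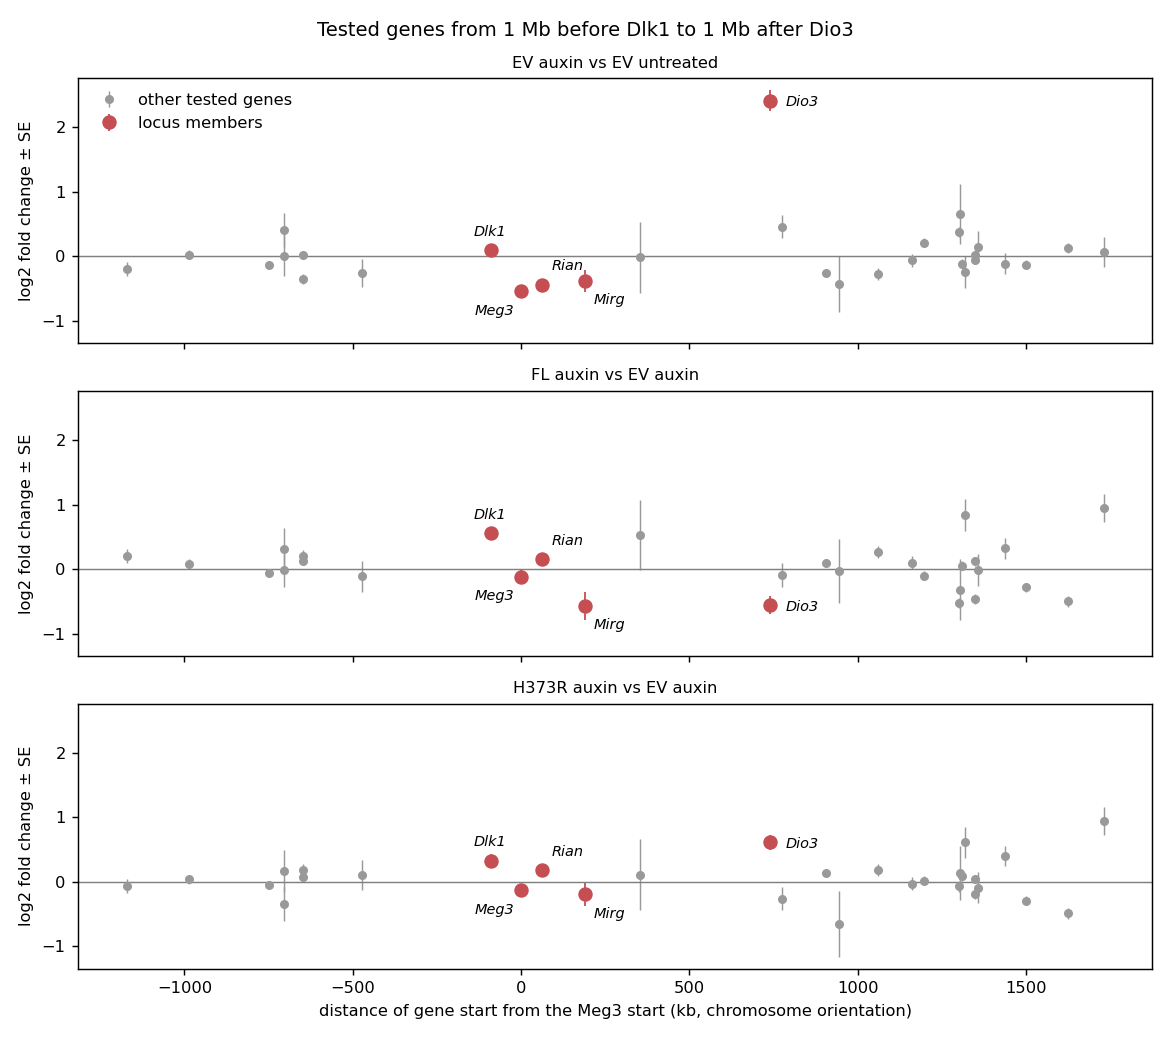
Log2 fold change ± SE (y axis) of every tested gene against the distance of its start from the Meg3 start in kb (x axis), for 3 comparisons; red points are locus members and grey points other tested genes. After auxin in EV cells Dio3 is at 2.41 and no flanking gene exceeds 0.66 in size, while Meg3, Rian and Mirg lie together below 0.

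Genes known to act on imprints, and pathway partners of the members, were followed by lists. Of 18 tested imprint regulators (factors that set, keep or erase methylation at imprinted regions), 4 rose and 2 fell after auxin in EV cells, beside 11.3% and 9.40% of all genes, with a median log2 fold change of 0.00 beside 0.009 for all genes. Dppa3, which protects maternal methylation in the early embryo, rose by 1.05 ± 0.08 (SE; adjusted p = 9.27e-08). Its level was 15.2 ± 0.888 CPM (SD, n = 3) in EV untreated, 31.4 ± 0.139 (n = 2) in EV auxin, 12.4 ± 0.794 (n = 3) in FL and 16.1 ± 0.421 (n = 3) in H373R. The methyltransferase Dnmt3b rose by 0.36 ± 0.05 (adjusted p = 4.98e-05), and Zfp57, which keeps imprints methylated, by 0.22 ± 0.05 (adjusted p = 0.00783). Tet2, an enzyme that oxidises methylcytosine, fell by 0.39 ± 0.09 (adjusted p = 0.00437) and was lower again in FL (-0.39 ± 0.09 against EV auxin) and in H373R (-0.74 ± 0.09). Against EV untreated, Dppa3 differed by 0.09 ± 0.07 in H373R (adjusted p = 0.328) and by -0.30 ± 0.08 in FL (adjusted p = 0.00669). Of the 18 regulators, 1 rose and 5 fell in FL against EV auxin, beside 11.1% and 13.4% of all genes. In H373R against EV auxin 1 rose and 8 fell, beside 10% and 11.7%. A link between these genes and the levels of the members was not tested.

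Of 21 tested Notch pathway genes, in which Dlk1 acts as a ligand, 4 rose and 3 fell after auxin in EV cells, with a median of 0.16, beside 11.3% and 9.40% of all genes. The ligand Jag1 fell by 0.46 ± 0.08 (SE; adjusted p = 5.12e-04) and the pathway's DNA-binding factor Rbpj by 0.24 ± 0.05 (adjusted p = 0.00579). The ligand Dll1 rose by 0.44 ± 0.11 (adjusted p = 0.0101) and the receptor Notch4 by 0.53 ± 0.13 (adjusted p = 0.00932). In FL against EV auxin 2 of 21 rose and 2 fell, beside 11.1% and 13.4% of all genes, and in H373R 3 rose and 2 fell, beside 10% and 11.7%. Only the FL counts against EV auxin lay below the shares of all genes in both directions. Against EV untreated, 6 rose and 4 fell in FL (17.7% and 19.2% of all genes), with a median of 0.01. In H373R 9 rose and 5 fell against EV untreated (22.3% and 22.1%), with a median of 0.27.

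Of 15 tested genes of thyroid hormone transport, metabolism and response, 3 rose and 3 fell after auxin in EV cells, with a median of 0.11, beside 11.3% and 9.40% of all genes. The transporter Slc7a8 rose by 0.74 ± 0.16 (SE; adjusted p = 0.00394). The transporter subunit Slc7a5 fell by 0.41 ± 0.06 (adjusted p = 1.93e-04), and Klf9, a thyroid hormone-responsive transcription factor, by 0.21 ± 0.05 (adjusted p = 0.00412). Of 5 tested genes of the retrotransposon-derived family of Rtl1, Ldoc1 alone rose after auxin (0.50 ± 0.15; adjusted p = 0.0252) and none fell, a share near the 20.7% of all genes called.

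Of 24 tested imprinted genes of other domains, 4 rose and 3 fell after auxin in EV cells, with a median of -0.02, beside 11.3% and 9.40% of all genes. Against EV auxin, 9 rose and 4 fell in FL (11.1% and 13.4% of all genes), and 9 rose and 3 fell in H373R (10% and 11.7%). Against EV untreated, 12 rose and 2 fell in FL (17.7% and 19.2% of all genes), with a median of 0.20, and 10 rose and 1 fell in H373R (22.3% and 22.1%), with a median of 0.27. Nnat, a paternally expressed gene, rose by 0.98 ± 0.09 (SE; adjusted p = 1.88e-06) and Plagl1, a zinc finger factor, by 0.93 ± 0.20 (adjusted p = 0.00321). Mkrn3, of the Prader-Willi domain, fell by 0.71 ± 0.11 (adjusted p = 3.25e-04). Nnat was ordered by group as Dio3 was, at 7.05 ± 0.600 CPM (SD, n = 3) in EV untreated, 10.8 ± 0.198 (n = 3) in FL, 13.9 ± 0.430 (n = 2) in EV auxin and 15.5 ± 0.688 (n = 3) in H373R. Between H373R and FL, Nnat differed by 0.52 ± 0.08 (adjusted p = 0.00118) and Plagl1 by 0.81 ± 0.14 (adjusted p = 0.00283), and 5 of the 24 genes rose and 3 fell, beside 3.14% and 2.82% of all genes.

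The genes with patterns most like those of the members were taken by Pearson r of log2 CPM over the 11 libraries among 12725 genes. For Dio3, 4 of the 5 are given: Tcp11 (r = 0.994, chromosome 17), Dmbx1 (0.987, chromosome 4), Adgre5 (0.986, chromosome 8) and Ecm1 (0.984, chromosome 3). None of these 4 is on chromosome 12. Tcp11 had mean levels of 7.08 CPM in EV untreated, 12.7 in FL, 14.4 in EV auxin and 18.6 in H373R, the same order of groups as Dio3. Ecm1, an extracellular matrix protein, went from 2.76 CPM in EV untreated to 14.1 in H373R. These correlations rest on libraries that share 4 group means and describe likeness only.

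For Meg3 the 5 most alike were Cbx6 (r = 0.984), Zfp536, Phlpp1, Cux1 and Cmss1, all highest in EV untreated. For Rian they were Msmo1 (r = 0.980), Ccng1, Trp53inp1, Nup155 and Nsmce2. Ccng1 had mean levels of 307 CPM in EV untreated, 170 in EV auxin, 207 in FL and 202 in H373R. For Mirg they were Pdp2 (r = 0.976), Pkp2, Phc3, Bbs9 and Btbd19, and for Dlk1 2210016F16Rik (r = 0.979), Zfp553, Sox17, Plod3 and Pnrc1. No gene was shared between the sets of the 5 members.

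**Figure D5:**
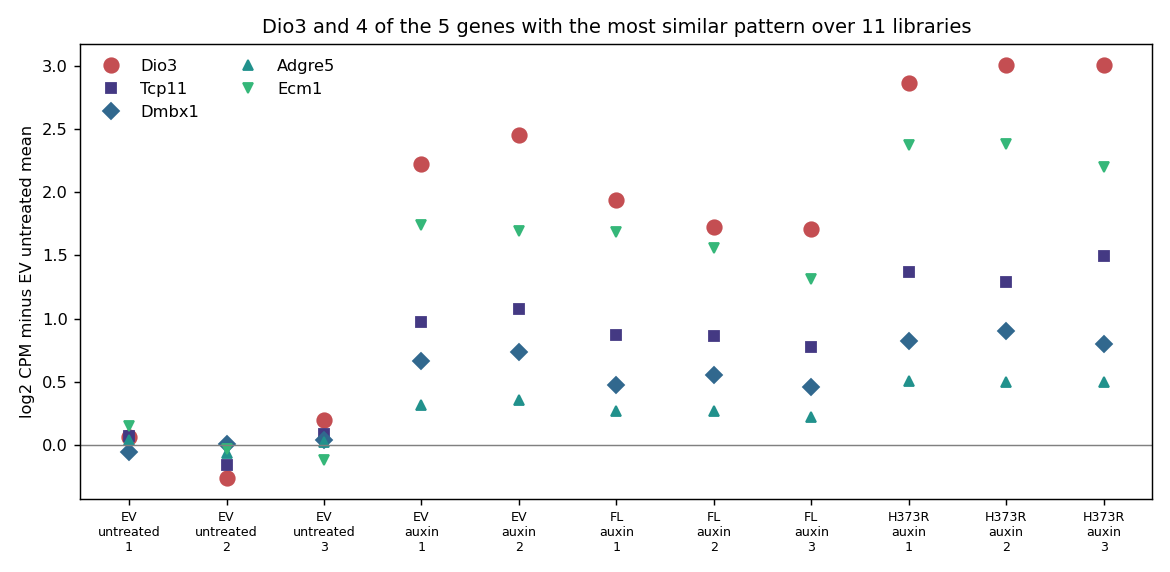
Log2 CPM minus the EV untreated mean (y axis) of Dio3 (large red points) and 4 of the 5 genes with the highest Pearson r to it (smaller symbols) in each of the 11 libraries (x axis). In all genes shown the H373R auxin libraries are the highest group and the EV untreated libraries the lowest, with r between 0.984 and 0.994.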

How the data were processed

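Deposited tables of read counts and of TPM per gene symbol were used for 11 libraries of total RNA prepared with a directional kit. Per the submitters' processing notes, the authors worked with featureCounts (Subread 2.0.3), DESeq2 and the builds mm10 and GRCm38; the aligner, the annotation and the strand setting of the counting are not given in the sources used here. The deposited TPM values and counts carried the same reads (largest relative difference 1.08e-14), and 98.9% of the gene lengths implied lay within 1% of GENCODE M21.

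Genes were filtered with filterByExpr by group, scaled by TMM and fitted with edgeR 4.0.16 (R 4.3.3) quasi-likelihood F tests in a model of the 4 group means over all 11 libraries, with Benjamini-Hochberg adjustment over 16420 genes and a threshold of 0.05. The tested genes hold at least 99.9% of each library's counts. The shared spread makes the 2 EV auxin libraries testable. Total counts of 13465241 to 29902246 per library give a common biological coefficient of variation of 0.0578. Standard errors are the log2 fold change over the square root of F. The alternatives were DESeq2 1.42.0, scaling by RLE or by the upper quartile, other count filters, a fit of only the libraries compared, a replicate block, robust dispersion, removal of GC content and length trends, limma 3.58.1 on log2(TPM + 1) and log2(TPM + 0.1), and leaving out each library. The fits were tested on simulated data.

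The members, lists and tests were chosen with earlier results of these data known. Named genes were the members, the flanking genes, up to 4 tested genes per list with the smallest p after auxin in EV cells, and the 5 genes most like each member whose mean log2 CPM was 1 or more (prior count 2). Dppa3, Sox17, Nnat, Plagl1, Amn, Traf3 and Mok are followed in further groups because their values had been seen. A few genes that these rules name are not reported here. Same-numbered replicates are treated as unpaired. Promoter and microRNA sequences are from RefSeq on GRCm38.p6.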

Additional observations from a re-analysis of the deposited data

How the results depend on the processing

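Over all alternatives, 648 of 690 log2 fold changes of the members stayed the same. For Dio3 this meant the same direction and a shift of less than its standard error. For the other members it meant the same direction and the same side of the threshold. Of the rest, 14 no longer passed, 7 newly passed, 11 changed direction and 10 values of Dio3 moved by more than their standard error. Depth limits Rtl1, which had at most 2 counts per library, and Mirg, with 15 to 67. Removing GC content and length trends changed the direction of Rian against EV untreated (0.09 in FL, 0.21 in H373R) and of Meg3 in the 3 comparisons among auxin-treated groups, where it passed in none (0.06 for FL and 0.08 for H373R relative to EV auxin, 0.02 for H373R relative to FL). Between H373R and FL, Dlk1 then passed, and the genes called there rose from 979 to 2238. The cause of these changes was not tested.

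With limma on TPM, Meg3 in H373R relative to FL stood at 0.01 (pseudocount 1), 0.02 (pseudocount 0.1) and 0.01 (no TPM filter). Without the TPM filter 2335 genes were called in H373R relative to EV auxin and 588 between H373R and FL. Meg3 after auxin in EV cells missed the threshold under all 3 (adjusted p from 0.093 to 0.103), as did Dlk1 in H373R relative to EV auxin (0.0688 to 0.122), while Mirg in H373R relative to EV untreated missed it under 2 of them (0.132 and 0.143). Fits of only the libraries compared, which estimate the spread from fewer samples, called 2016 genes after auxin in EV cells, 5909 in H373R relative to EV auxin and 1815 between H373R and FL. As a share of the EV untreated level, Dlk1 in EV auxin was 1.07 by RLE scaling and 1.10 by TPM, Meg3 in FL 0.613 by TPM, and Rian in H373R 0.833 by RLE scaling and 0.83 by TPM. The share of calls that were higher in FL relative to EV auxin was 45.2% in the main fit, 28.1% with limma on log2(TPM + 1) and 58% with trends removed; between H373R and FL these shares were 52.7%, 65% and 39.1%. In H373R relative to EV auxin it was 46.1%, and 35.4% with limma; in FL relative to EV untreated it was 47.9%, and 36.9% with limma and no TPM filter.

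Leaving out 1 library at a time, the genes called after auxin in EV cells ran from 1569 (without EV auxin replicate 2) to 5444 (without EV untreated replicate 1). In FL relative to EV auxin the genes called ran from 1879 to 5800, and in H373R relative to EV auxin from 1502 to 5397. Between H373R and FL they ran from 510 to 2323. The lowest counts in comparisons with EV auxin came from fits that left 1 EV auxin library, which give no spread for that group. Calls of Dio3 are not counted, since the locus was selected on its values. Of the other members, Rian newly passed in FL and in H373R relative to EV auxin without EV untreated replicate 1. Dlk1 newly passed between H373R and FL in that same fit. In H373R relative to EV auxin, Dlk1 no longer passed without H373R replicate 1 or 3. Meg3 between H373R and FL ran from -0.06 to 0.05, and Rian there from -0.00 to 0.05.

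With the replicate number as a block, no call of the members other than Dio3 changed. Rian after auxin in EV cells was at -0.42 (adjusted p = 9.90e-04) and Meg3 at -0.53 (adjusted p = 0.00232), with 3197 genes called. Same-numbered libraries had correlations of their deviations from -0.09 to 0.28, with 3 of 15 pairs over 0.1. Of the 11 libraries, 7 correlated best with their own number. The main fit treats the samples as unpaired, and whether the numbers mark a shared preparation was not tested.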
